A study of Mus musculus with 4 samples.

Results

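A set of 7 regulators of primitive and visceral endoderm was followed through ribosome footprints of mouse embryonic stem cells (ESCs) and embryoid bodies (EBs). They were the zinc finger factors Gata4 and Gata6, the HMG-box factors Sox17 and Sox7, the forkhead factor Foxa2, the nuclear receptor Hnf4a and the transcriptional co-activator Cited1. Members were found by gene symbol, the deposited coding-sequence entries of each symbol were added up, and all 7 of 7 were found among the 20716 genes of the table. Ribosome profiling sequences the short pieces of mRNA that a translating ribosome shields from nuclease, so a footprint count depends both on how much mRNA there is and on how densely ribosomes occupy it.

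Libraries were made from Mettl3 knockout (KO) EBs, wild-type (WT) EBs, KO ESCs and WT ESCs, 1 of each, and all cells were of strain C57BL/6. Mettl3 is the catalytic subunit of the enzyme that writes N6-methyladenosine on mRNA. ESCs were held in the naive state without serum, with LIF and the inhibitors CHIR99021 (of GSK3) and PD0325901 (of MEK). EBs, floating aggregates in which ESCs differentiate, grew in medium with serum for between 8 and 21 days. The day on which each EB library was taken, the number of clones behind each genotype and the altered part of Mettl3 are all not given in the labels or notes used here. With 1 library per group no difference had a replicate check, and a genotype cannot be told apart from a cell line or a library.

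Primitive endoderm is the epithelium that forms on the blastocyst's inner cell mass, and it gives rise to the visceral endoderm around the embryo and the parietal endoderm that lays down Reichert's membrane. In the mouse, Gata6 stands at the head of this programme and is followed by Sox17, Gata4 and Sox7, while Foxa2 and Hnf4a act in the maturing visceral endoderm, where Hnf4a drives genes of lipid transport and serum proteins. The outer layer of EBs forms the same tissue in culture. Several of these factors work elsewhere too: Gata4 in the heart, Sox7 and Sox17 in endothelium, Foxa2 in definitive endoderm and the node, and Hnf4a in the liver.

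Reads on genes numbered between 4075850 and 11455539 per library. After the authors' normalisation 1 read was worth 1.49 in KO EBs, 1.56 in WT EBs, 0.533 in KO ESCs and 0.778 in WT ESCs, so a value of 100 rests on fewer reads in EBs than in ESCs. Intervals below are 95% exact binomial (Clopper-Pearson) intervals of the ratio of reads in 2 libraries and carry counting error alone. Each log2 fold was taken after adding 1 to both values, so the change of a low gene is understated. Mettl3 itself stood at 327 in KO EBs, 429 in WT EBs, 298 in KO ESCs and 563 in WT ESCs. A count over all of its coding sequence would not reveal the loss of 1 exon, so these values give no check of the knockout. The 8 genes of a Y-linked list summed to 70.2 in KO EBs and 15.6 in WT EBs, against 1518 in KO ESCs and 447 in WT ESCs. Both EB libraries therefore stood far below both ESC libraries in Y-linked footprints, and whether each EB culture came from the matching ESC line was not tested.

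All 7 factors stood lower in KO EBs than they did in WT EBs, by between 3.77-fold for Cited1 and 47.8-fold for Sox7. Added together they came to 549 in KO EBs and 4288 in WT EBs, against 202 in KO ESCs and 142 in WT ESCs. Per 1000000 reads on genes this was 90.3 in KO EBs, 650 in WT EBs, 33.0 in KO ESCs and 21.4 in WT ESCs. WT EBs were thus the one library in which the whole set was high, KO EBs lay between WT EBs and the ESCs, and the KO and WT ESCs lay close together apart from Hnf4a. In such bulk cultures, fewer cells of a type and fewer footprints per cell cannot be told apart.

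**Figure D1:**
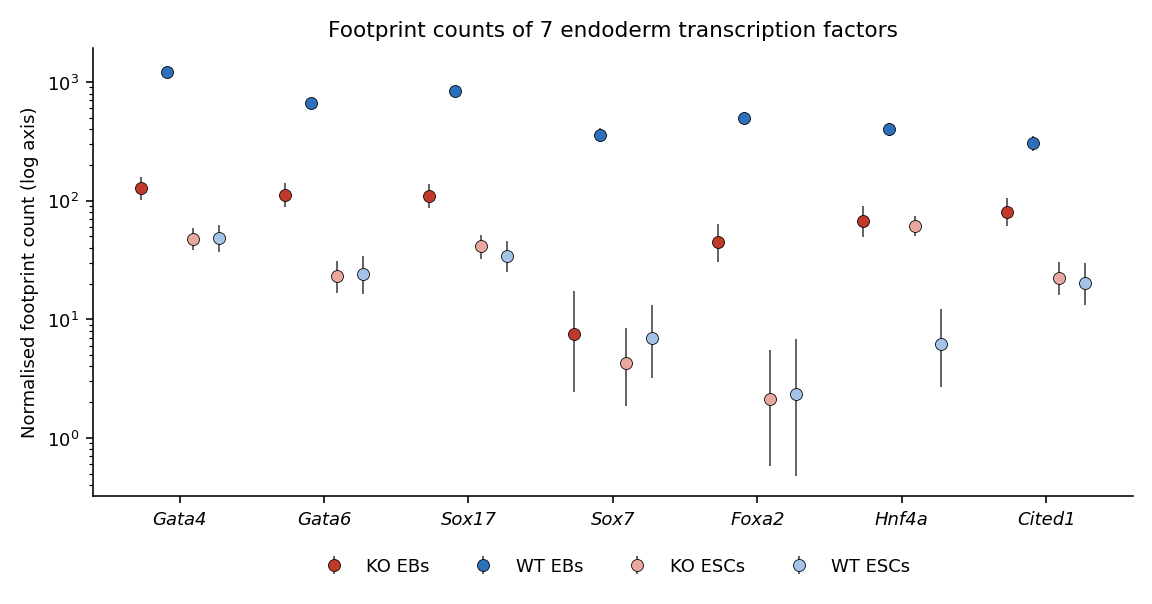
Normalised footprint count (log axis) of each of the 7 factors, with points in the order KO EBs, WT EBs, KO ESCs and WT ESCs and bars for 95% exact Poisson intervals of the reads (counting error only). Each of the 7 factors is highest in WT EBs, and Hnf4a is the one factor whose bars stand apart between KO ESCs (61.3) and WT ESCs (6.23).

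Gata4 (NM_008092; GRCm38 chromosome 14, coding positions 63200375 to 63241148, minus strand, 6 coding exons) is a zinc finger factor of the visceral and parietal endoderm. It stood at 127 in KO EBs, 1217 in WT EBs, 47.5 in KO ESCs and 48.3 in WT ESCs, from 85, 781, 89 and 62 reads in that order. The KO EB value was above both ESC values and far below the WT EB value. Against WT EBs, KO EBs were 9.59-fold lower (7.66 to 12.1), a log2 fold of −3.25.

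Gata6 (NM_010258; chromosome 18, 11054073 to 11084482, plus strand, 6 coding exons), whose loss in the mouse embryo abolishes primitive endoderm, followed the same order over the libraries. It had 112 in KO EBs, 665 in WT EBs, 22.9 in KO ESCs and 24.1 in WT ESCs (75, 427, 43 and 31 reads). KO EBs were 5.94-fold lower than WT EBs (4.64 to 7.70; log2 fold −2.56). From ESCs to EBs it was 4.88-fold higher in KO cells (3.31 to 7.28) and 27.6-fold higher in WT cells (19.1 to 41.1), and Gata4 was 2.67-fold higher in KO cells (1.96 to 3.64) and 25.2-fold higher in WT cells (19.5 to 33.2). Both GATA factors thus stood above their ESC level in EBs of either genotype, by less in KO cells.

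Sox17 (NM_011441; chromosome 1, 4491716 to 4493406, minus strand, 2 coding exons), an HMG-box factor of primitive, visceral and definitive endoderm, stood at 110.5 in KO EBs, 843 in WT EBs, 41.1 in KO ESCs and 34.2 in WT ESCs (74, 541, 77 and 44 reads). Its profile over the 4 libraries was the closest to that of Gata4 among the other 6 factors. KO EBs were 7.63-fold lower than WT EBs (5.98 to 9.87; log2 fold −2.92). Between stages Sox17 was 2.69-fold higher in EBs in KO cells (1.93 to 3.75) and 24.6-fold higher in WT cells (18.1 to 34.3). RefSeq lists several Sox17 transcripts over this coding sequence, which footprint counts do not separate.

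Sox7 (NM_011446; chromosome 14, 63943756 to 63948659, plus strand, 2 coding exons), its relative in the same SOX subgroup, was close to absent outside WT EBs. It stood at 7.46 in KO EBs, 357 in WT EBs, 4.27 in KO ESCs and 7.01 in WT ESCs, and the 3 low values rested on only 5, 8 and 9 reads against 229 in WT EBs. KO EBs were 47.8-fold lower than WT EBs, with a wide interval of 20.2 to 149 (log2 fold −5.40). From KO ESCs to KO EBs a difference was not detectable at this depth, with a ratio of 1.75 and an interval of 0.450 to 6.06. WT EBs stood 50.9-fold above WT ESCs (26.4 to 113).

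Foxa2 (NM_010446; chromosome 2, 148043514 to 148045895, minus strand, 2 coding exons), a forkhead factor that opens chromatin, had at most 4 reads in either ESC library. It stood at 44.8 in KO EBs, 502 in WT EBs, 2.13 in KO ESCs and 2.34 in WT ESCs, where the ESC values were 4 reads and 3 reads. KO EBs were 11.2-fold lower than WT EBs (7.70 to 16.9; log2 fold −3.46). Yet Foxa2 was also the factor with the highest EB to ESC ratio within the KO cells, 21.0 (7.40 to 82.0), against 215 in WT cells (72.9 to 1048). Its 30 reads in KO EBs thus set that library apart from both ESC libraries.

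Hnf4a (NM_008261; chromosome 2, 163547305 to 163570091, plus strand, 10 coding exons) departed from the other 6 in ESCs. It stood at 67.2 in KO EBs, 399 in WT EBs, 61.3 in KO ESCs and 6.23 in WT ESCs (45, 256, 115 and 8 reads). KO EBs were 5.94-fold lower than WT EBs (4.31 to 8.35; log2 fold −2.55), whereas KO ESCs were 9.85-fold higher than WT ESCs (4.84 to 23.4; log2 fold 3.11). The 115 and 8 reads behind the ESC values do not overlap in their counting intervals. In KO cells the EB and ESC values did not differ beyond counting error, with a ratio of 1.09 and an interval of 0.758 to 1.56, while in WT cells EBs stood 64.1-fold above ESCs (32.0 to 150.0).

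Promoter sequence was at hand in RefSeq (GRCm38.p6) for 3 of the 7 factors, with 3 transcription starts for Foxa2, 2 for Hnf4a and 3 for Cited1, and it is shown here because all of the factors but Cited1 bind GATA, forkhead, SOX or HNF4 motifs and all 7 differed in 1 direction between KO and WT EBs. The 250 bases before each of the 8 starts were searched on both strands for AGATAA (bound by GATA factors), TGTTTAC (forkhead), ACAATG and ACAATA (SOX) and CAAAGTCCA (HNF4). Of all 32851 RefSeq promoters of this length, 9.99% hold AGATAA, 3.17% TGTTTAC, 10.7% ACAATG, 8.17% ACAATA and 0.384% CAAAGTCCA. AGATAA was found in 2 of the 8 windows, 52 bases before the upstream start of Hnf4a and 183 bases before the most downstream start of Foxa2, and none of the other 4 motifs was found in any of the 8. Both matches are in capitals in the stretches below, given 5′ to 3′ on the strand of the gene; the second Hnf4a window, which lies just before the first exon of the counted coding sequence, holds no match. The last 46 bases of the first Hnf4a window are left off because another transcript begins there, and the Foxa2 window lies in an intron of its longer transcripts. A match is a description of these letters, not of a bound site.
Hnf4a upstream start, chr2:163506607-163506810, plus strand: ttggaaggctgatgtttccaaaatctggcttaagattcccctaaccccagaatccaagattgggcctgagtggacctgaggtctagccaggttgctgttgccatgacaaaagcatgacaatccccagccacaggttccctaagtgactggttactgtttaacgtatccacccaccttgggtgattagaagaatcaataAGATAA
Hnf4a downstream start, chr2:163546905-163547154, plus strand: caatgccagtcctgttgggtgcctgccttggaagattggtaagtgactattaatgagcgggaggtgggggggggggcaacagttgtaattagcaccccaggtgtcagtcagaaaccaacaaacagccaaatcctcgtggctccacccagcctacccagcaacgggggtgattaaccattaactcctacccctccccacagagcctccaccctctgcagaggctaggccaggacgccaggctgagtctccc
Foxa2 most downstream start, chr2:148045465-148045714, minus strand: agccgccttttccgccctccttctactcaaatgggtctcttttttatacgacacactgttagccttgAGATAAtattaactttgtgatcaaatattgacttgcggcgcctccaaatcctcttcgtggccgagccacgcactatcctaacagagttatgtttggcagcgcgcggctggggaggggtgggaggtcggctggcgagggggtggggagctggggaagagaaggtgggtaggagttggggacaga

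Cited1, which binds the acetyltransferase CBP and has no DNA-binding domain of its own, showed the smallest gap between the EBs. It stood at 80.6 in KO EBs, 304 in WT EBs, 22.4 in KO ESCs and 20.2 in WT ESCs (54, 195, 42 and 26 reads). KO EBs were 3.77-fold lower than WT EBs (2.78 to 5.20; log2 fold −1.90), and EBs stood above ESCs by 3.60-fold in KO cells (2.36 to 5.52) and 15.0-fold in WT cells (9.94 to 23.6). Cited1 is X-linked, in cultures whose Y-linked footprints differed as given above, and the part of this in its values was not tested.

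The Cited1 values cover only a short piece of the gene. The table holds 4 Cited1 entries. Of these, 3 (NM_007709, NM_001276466 and NM_001276473, coding length 612 nt) have 0 reads in every library, and 0 of their bases belong to 1 entry alone. All reads lie on NM_001276474 (chromosome X, 102247457 to 102250531, minus strand, 3 coding exons, 696 nt), where 84 nt, or 12.1%, belong to it alone. These are the 28 codons that precede the start codon of the other entries, and 65 of the 84 bases lie in exons of the other 3 transcripts ahead of their start codon. A footprint in the shared 612 nt could not be assigned to 1 entry. The counted bases just before the shared start are shown, with that ATG in capitals, to mark where the counted stretch ends (GRCm38.p6, RefSeq genome, chrX:102248620-102248649, minus strand).
Cited1 end of the counted stretch: ttatcggacttctgcccaggctctgaaATG
The Cited1 counts thus compare this stretch between libraries and say nothing of the shared coding sequence, and Cited1 is left out of every comparison of levels between genes. For the other 6 factors the table holds 1 entry each, with 100% of its coding bases its own, and between 0.4 and 2.0% of their 28-nt windows have a copy elsewhere in the genome.

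In KO EBs against WT EBs 0 of 7 factors were at least 2-fold higher and 7 of 7 at least 2-fold lower, where 15.2% and 12.2% of the 9670 genes compared were. The median log2 fold was −2.92 over the factors and −0.07 over all genes. Among all genes compared, Sox7 lay at percentile 0.145 and Cited1, the factor nearest to equal, at 2.95. Genes were compared where their mean over the 4 libraries was at least 25. All 7 factors passed, but Sox7 and Foxa2 did so only through WT EBs, with means of 6.25 and 16.4 over the other 3 libraries, so their presence among the genes lower in KO EBs, and among those higher in WT EBs than in WT ESCs, is in part fixed by that filter.

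In KO ESCs against WT ESCs 1 of 7 factors was at least 2-fold higher and 0 of 7 at least 2-fold lower, where 10.6% and 4.42% of all genes compared were. The single one was Hnf4a, at percentile 99.6. Of the others, the ratio of KO to WT was 0.984 for Gata4 (0.703 to 1.38), 0.951 for Gata6 (0.585 to 1.56) and 1.20 for Sox17 (0.818 to 1.78). Cited1 had a ratio of 1.11 (0.663 to 1.88). These intervals reach no further than 1.88-fold either way. Those of Sox7 (0.609, 0.205 to 1.78) and Foxa2 (0.914, 0.155 to 6.24) rest on 9 reads or fewer and leave room for larger differences.

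In WT EBs against WT ESCs 7 of 7 factors were at least 2-fold higher and 0 of 7 at least 2-fold lower, where 11.0% and 8.25% of all genes compared were. Their log2 folds ran from 3.84 for Cited1 to 7.24 for Foxa2, with a median of 4.73 against −0.02 over all genes. Sox7 and Foxa2, which passed the filter only through WT EBs, are 2 of these 7. The other 5 ran up to 5.79, for Hnf4a. In KO EBs against KO ESCs 5 of 7 were at least 2-fold higher and 0 of 7 at least 2-fold lower, where 9.31% and 6.65% were. Sox7 and Hnf4a were the factors within 2-fold. The log2 folds ran from 0.13 for Hnf4a to 3.87 for Foxa2, with a median of 1.41 against −0.08 over all genes.

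**Figure D2:**
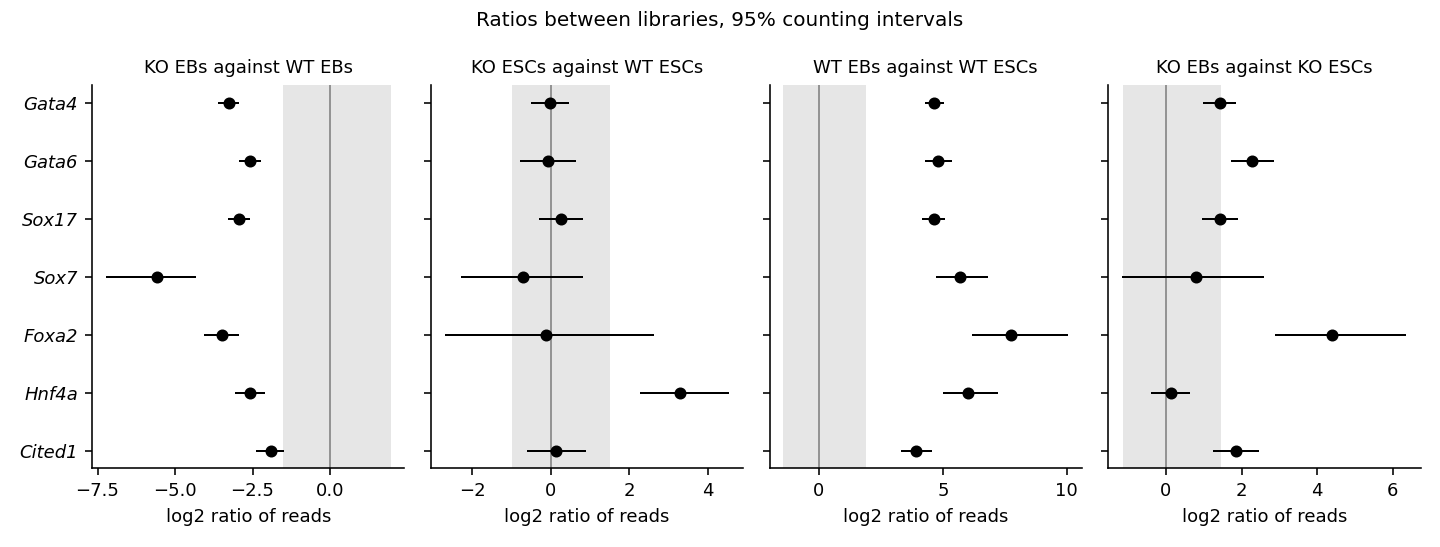
Log2 ratio of reads for each factor in the 4 comparisons, with 95% counting intervals; the grey band spans the 5th to the 95th percentile of the log2 folds of all 9670 genes compared. All 7 points lie left of the band in KO EBs against WT EBs and right of it in WT EBs against WT ESCs, and Hnf4a is the one factor outside it in KO ESCs against WT ESCs.

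The change from ESCs to EBs was smaller in KO cells than in WT cells for each factor. Taken as the log2 change in KO minus that in WT, it came to −2.04 for Cited1, −2.49 for Gata6, −3.18 for Sox17, −3.23 for Gata4, −3.37 for Foxa2, −4.80 for Sox7 and −5.66 for Hnf4a. All 7 of 7 lay at −1 or lower and 0 of 7 at 1 or higher, where 12.5% and 11.4% of all genes compared did. Sox7 and Foxa2 passed the filter only through WT EBs, so their place in this count is in part fixed by that filter. Without the pseudocount the counting interval was widest for Foxa2, −5.58 to −1.13, and for Hnf4a it ran from −7.00 to −4.74. For the other 6 factors the log2 fold of KO against WT ran from −5.40 to −1.90 in EBs and from −0.60 to 0.26 in ESCs, whereas for Hnf4a a negative EB fold and a positive ESC fold added up.

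**Figure D3:**
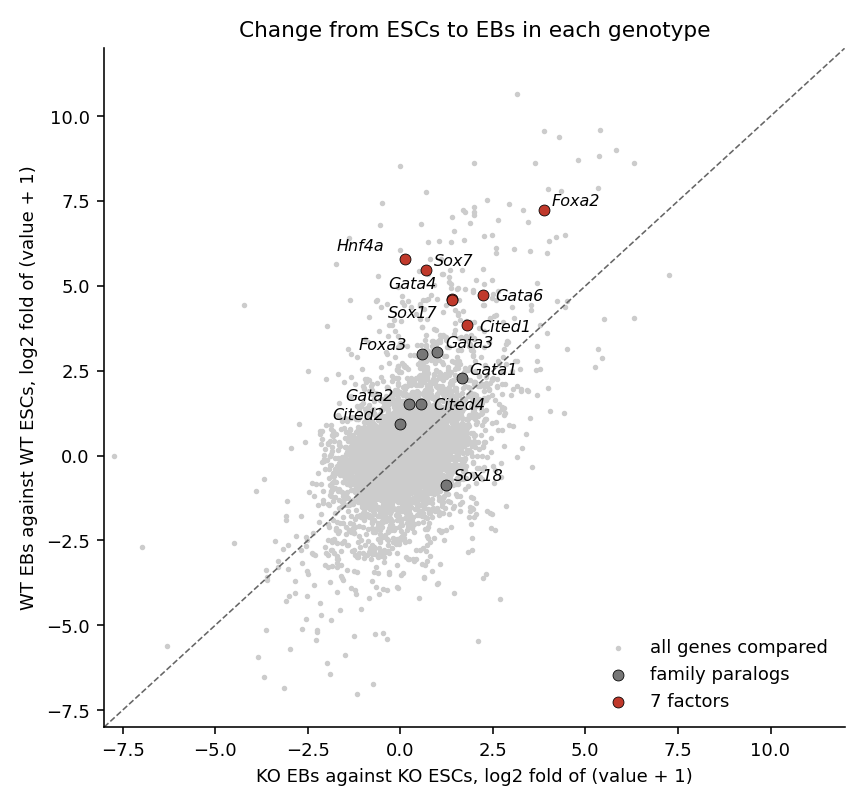
Log2 fold of EBs against ESCs in KO cells (horizontal axis) and in WT cells (vertical axis) for all genes compared (grey), the 7 family paralogs that passed the filter (dark grey) and the 7 factors (red); the dashed line marks equal change. The factors sit well above the line, with Hnf4a at 0.13 in KO cells and 5.79 in WT cells, and Sox18 is the one labelled paralog below it.

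Levels of the other 6 factors were compared per 1000 nt of coding sequence. In WT EBs Gata4 came first with 918 per 1000 nt and Sox17 next with 669, and both steps down exceeded counting error, Gata4 to Sox17 by 1.37-fold (1.23 to 1.53) and Sox17 to Gata6 by 1.78-fold (1.56 to 2.03). Gata6 at 376, Foxa2 at 364, Sox7 at 312 and Hnf4a at 280.0 followed, and no neighbours among these differed beyond counting error. In KO EBs the order was Gata4 at 95.7, Sox17 at 87.7, Gata6 at 63.2, Hnf4a at 47.1, Foxa2 at 32.4 and Sox7 at 6.53 per 1000 nt. There only the last step, Foxa2 to Sox7, exceeded counting error (4.97-fold, 1.91 to 16.4). Sox7, at 10.7% of the length-scaled sum of the 6 in WT EBs, made up 1.96% of it in KO EBs.

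In KO ESCs Hnf4a led with 43.0 per 1000 nt, ahead of Gata4 at 35.8 and Sox17 at 32.6, and these 3 did not differ beyond counting error. Gata6 at 13.0 lay 2.52-fold below Sox17 (1.71 to 3.74), and Sox7 at 3.73 lay 3.47-fold below Gata6 (1.61 to 8.55), with Foxa2 last at 1.55. In WT ESCs Gata4 led at 36.4, with Sox17 at 27.2, Gata6 at 13.6, Sox7 at 6.13, Hnf4a at 4.37 and Foxa2 at 1.69 per 1000 nt. Hnf4a thus held 33.2% of the length-scaled sum of the 6 in KO ESCs and 4.89% in WT ESCs. Gata4 stood above Sox17 and Sox17 above Gata6 in all 4 libraries. The first step was within counting error in all but WT EBs, and the second step was within it in KO EBs.

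**Figure D4:**
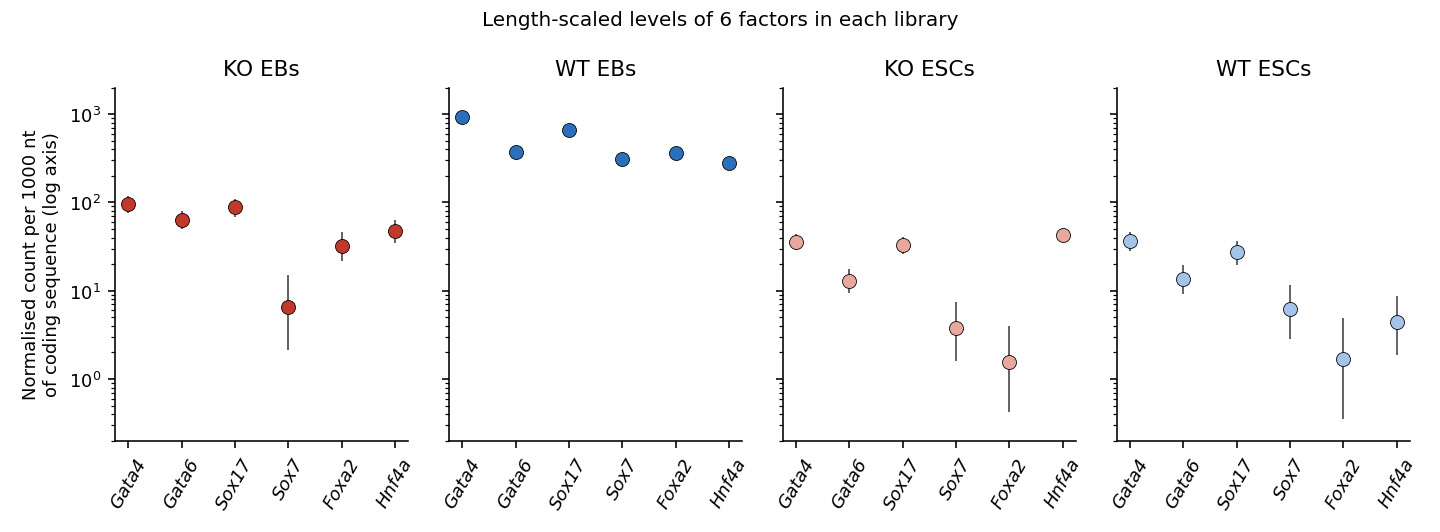
Normalised count per 1000 nt of coding sequence (log axis) for the 6 factors with a full-length count, 1 panel per library, with 95% exact Poisson intervals. WT EBs hold all 6 between 280.0 and 918, whereas in the other 3 libraries Sox7 lies at 6.53 or lower.

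Relatives of the factors shared the change between stages in part and showed no common direction between the EBs. Of 10 family paralogs 7 passed the filter. In WT EBs against WT ESCs 5 of these 7 were higher by 2-fold or more and 0 lower, where 11.0% and 8.25% of all genes compared were, at a median log2 fold of 1.53. The change from ESCs to EBs was smaller in KO cells for 6 of the 7, all but Sox18, and 3 of 7 lay at −1 or lower and 1 of 7 at 1 or higher, where 12.5% and 11.4% of all genes did. That difference had a median of −0.96 over the paralogs, with Foxa3 at −2.41 and Gata3 at −2.06, against −3.23 over the 7 factors. Foxa3, counted among the 5 and among the 3, passed the filter only through WT EBs. Sox18, the 1 at 1 or higher, passed it only through KO EBs. The place of both in these counts is in part fixed by that filter.

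In KO EBs against WT EBs 2 of the 7 paralogs were higher and 1 lower by 2-fold or more, where 15.2% and 12.2% of all genes compared were. The lower one was Foxa3, a forkhead factor of endoderm and liver, with 23.9 in KO EBs, 201 in WT EBs, 15.5 in KO ESCs and 24.1 in WT ESCs, 8.42-fold lower in KO EBs (4.99 to 15.2). Like the 7 factors it was highest in WT EBs. The higher ones were Sox18 and Cited4. Sox18, an endothelial factor of the subgroup of Sox7 and Sox17, stood at 74.6 in KO EBs, 4.68 in WT EBs, 30.9 in KO ESCs and 9.34 in WT ESCs, with a ratio of 16.0 between KO EBs and WT EBs (5.16 to 80.0) from 50 reads against 3. Foxa3 passed the filter only through WT EBs and Sox18 only through KO EBs, with means of 21.2 and 15.0 over the other 3 libraries, so their place among the lower and the higher genes is in part fixed by that filter.

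Cited4, a co-activator like Cited1, stood at 233 in KO EBs, 51.4 in WT EBs, 156 in KO ESCs and 17.1 in WT ESCs. It was 4.53-fold higher in KO EBs (3.09 to 6.81) and 9.13-fold higher in KO ESCs (5.92 to 14.8). Cited2, another co-activator of the family, stood at 1833 in KO EBs, 2132 in WT EBs, 1845 in KO ESCs and 1107 in WT ESCs, within 2-fold in both genotype comparisons.

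In KO ESCs against WT ESCs 4 of the 7 paralogs that passed were higher by 2-fold or more and 0 lower, where 10.6% and 4.42% of all genes compared were. Among the other GATA factors, Gata3, a regulator of trophoblast, stood at 528 in KO EBs, 349 in WT EBs, 265 in KO ESCs and 41.3 in WT ESCs, and was 6.41-fold higher in KO ESCs than in WT ESCs (4.83 to 8.68). The blood factor Gata1 had 102 in KO EBs, 53.0 in WT EBs, 31.5 in KO ESCs and 10.1 in WT ESCs, and Gata2, which also acts in blood, had 77.6 in KO EBs, 117 in WT EBs, 65.6 in KO ESCs and 40.5 in WT ESCs. The forkhead factor Foxa1 (29.9 in KO EBs, 28.1 in WT EBs, 18.7 in KO ESCs and 14.0 in WT ESCs) did not pass the filter, and neither did Gata5, with at most 3 reads, nor Hnf4g, the closest relative of Hnf4a, with at most 1 read.

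The products of visceral endoderm, the secreted and absorptive proteins that mark the mature tissue, lay with the factors. Of 29 genes on that list 24 passed, and in KO EBs against WT EBs 22 of 24 were lower by 2-fold or more and 1 was higher by that much, at a median log2 fold of −4.09, where 12.2% and 15.2% of all genes compared were. The filter bears on this count, since 8 of the 24 (Ttr, Apoa4, Rbp4, Fgb, Fgg, Dkk1, Spink1 and Ihh) passed it only through WT EBs, and all 8 are among the 22. From ESCs to EBs 20 of 24 were higher by 2-fold or more in KO cells, at a median log2 fold of 2.50. In WT cells 23 of 24 were, at a median of 6.05. Of all genes compared, 9.31% were higher by that much in KO cells and 11.0% in WT cells. The filter bears on the WT count as well. By sign alone, all 24 stood above their ESC level in EBs of both genotypes, as did all 7 factors. The rise was smaller in KO cells for 22 of 24, a count on which the filter bears too, and larger for Lefty1 and Apoe. Between KO EBs and KO ESCs, Apoa2 (ratio 1.28, 0.928 to 1.75) and Fgg (1.94, 0.731 to 4.90) did not differ beyond counting error. Among the factors the same held for Hnf4a and Sox7. Summed over the list, the products came to 20758 in KO EBs, 87239 in WT EBs, 6330 in KO ESCs and 8177 in WT ESCs. Cubn, the cubilin receptor of the absorptive surface, and the hormone carrier Ttr were the lowest by the naming rule, with log2 folds of −5.59 and −5.85. Lefty1, a Nodal antagonist of the anterior visceral endoderm that epiblast cells also make, was the exception, with 1457 in KO EBs, 519 in WT EBs, 111 in KO ESCs and 73.9 in WT ESCs. Apoe stood at 14998 in KO EBs and 12708 in WT EBs, and it alone held most of the KO EB sum.

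Parietal endoderm and basement membrane genes split. All 15 passed, 8 of them lower in KO EBs by 2-fold or more and 2 higher by that much, at a median of −1.43. Of all genes compared, 12.2% were lower and 15.2% higher by that much. The laminin chain Lama1 had 1033 in KO EBs, 21662 in WT EBs, 619 in KO ESCs and 2541 in WT ESCs, and the proteoglycan Srgn had 76.1 in KO EBs, 1816 in WT EBs, 36.3 in KO ESCs and 21.8 in WT ESCs. The perlecan gene Hspg2 went the other way, with 29435 in KO EBs and 10823 in WT EBs, as did the laminin chain Lamb2, with 2252 and 944. Both of these are also made by other tissues. Lama1 was not particular to EBs either, and in ESCs too it was 4.10-fold lower in KO than in WT cells (3.84 to 4.39).

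Of 18 other regulators of endoderm, 11 passed, 3 of them higher and 3 lower in KO EBs by 2-fold or more, at a median of −0.50. Of all genes compared, 15.2% were higher and 12.2% lower by that much. The forkhead factor Foxq1 had 11.9 in KO EBs, 357 in WT EBs, 4.80 in KO ESCs and 7.78 in WT ESCs. It was 29.9-fold lower in KO EBs (14.9 to 70.1), but it passed the filter only through WT EBs, with a mean of 8.18 over the other 3 libraries. Tcf7l2, a transcription factor of Wnt signalling and another of the 3 lower, also passed only through WT EBs. The GATA cofactor Zfpm1 was among the higher ones, at 472 in KO EBs, 224 in WT EBs, 264 in KO ESCs and 104 in WT ESCs. Another 4 genes of this list had no read in any library, as taken up below.

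Signals that induce or pattern endoderm showed no common direction. In KO EBs 3 of 14 were higher and 4 of 14 lower by 2-fold or more, at a median of −0.20. Of all genes compared, 15.2% were higher and 12.2% lower by that much. Of the 4 lower, Bmp2 and Ihh passed the filter only through WT EBs, so their place there is in part fixed by that filter. The TGF-beta family ligand Nodal stood at 3996 in KO EBs, 1135 in WT EBs, 1753 in KO ESCs and 1776 in WT ESCs. Fgf4, the FGF ligand through which primitive endoderm is specified, stood at 2263 in KO EBs, 809 in WT EBs, 1629 in KO ESCs and 1541 in WT ESCs. Both ligands were thus higher in KO EBs, and Fgf4 is also on the list of naive pluripotency genes taken up below. The part of these signals in the levels of the factors was not tested. The hedgehog ligand Ihh, which visceral endoderm secretes, stood at 20.9 in KO EBs and 307 in WT EBs and passed the filter only through WT EBs, and Spry2, an FGF feedback inhibitor, at 200.0 in KO EBs, 611 in WT EBs, 246 in KO ESCs and 640 in WT ESCs.

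**Figure D5:**
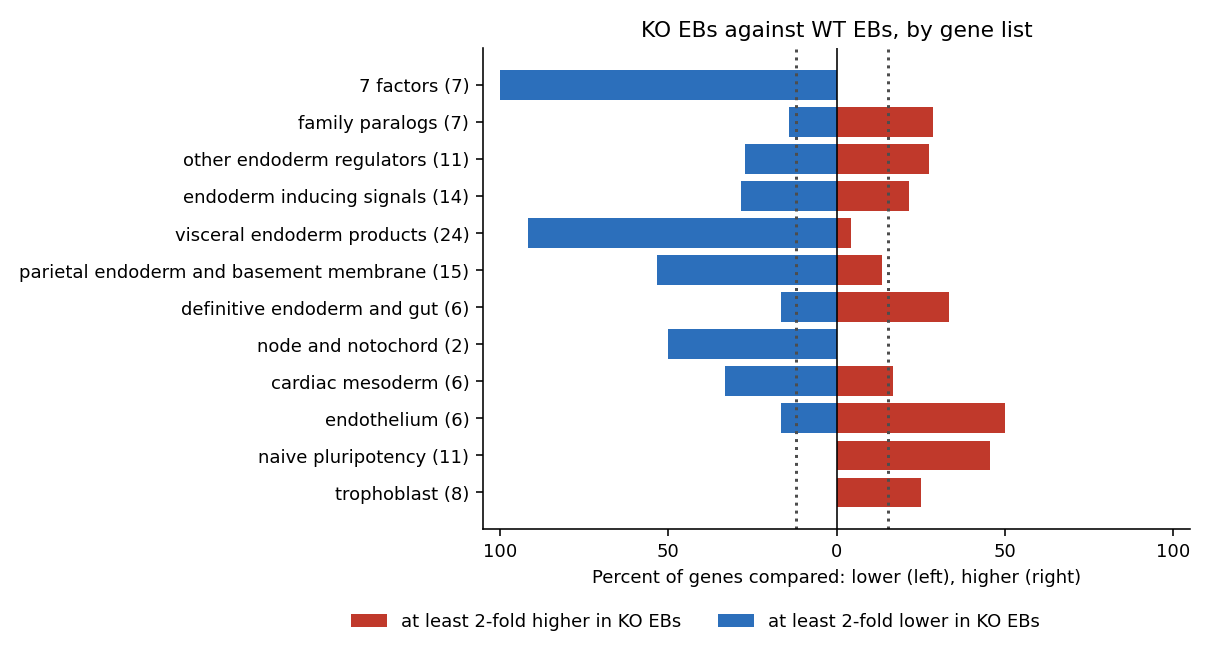
Percent of the genes compared on each list (number in brackets) that stood lower (left, blue) or higher (right, red) by 2-fold or more when KO EBs are set against WT EBs; dotted lines mark the same shares over all genes, 12.2% and 15.2%. The 7 factors and the visceral endoderm products (22 of 24) are nearly all on the left, and the naive pluripotency list (5 of 11 higher, 0 of 11 lower) is on the right.

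Markers of other cells an EB can hold were read for the tissues in which the factors also act. Definitive endoderm and gut genes had a sum of 6766 in KO EBs and 6148 in WT EBs. Most of both sums came from Cldn4, with 3899 in KO EBs and 2110 in WT EBs, and Epcam, with 2645 and 3435. The sums thus say little of the other genes on the list. Of its 16 genes 6 passed, with 2 higher and 1 lower in KO EBs by 2-fold or more, where 15.2% and 12.2% of all genes compared were. The lower one, Vil1, the villin of absorptive surfaces, had 13.4 in KO EBs, 243 in WT EBs, 9.07 in KO ESCs and 14.0 in WT ESCs, and passed the filter only through WT EBs. The higher ones were Sox9, with 58.2 in KO EBs and 15.6 in WT EBs, 3.74-fold higher (1.83 to 8.39), and the intestinal factor Cdx1, with 22.4 in KO EBs and 1.56, or 1 read, in WT EBs. For the node and notochord 2 of 6 passed, with 0 higher and 1 lower, and a sum of 131 in KO EBs and 173 in WT EBs. The lower one, Nog, passed the filter only through WT EBs, so its place there is in part fixed by that filter.

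Members of the other lists differed in both directions, which their sums do not show. Of all genes compared, 15.2% were higher and 12.2% lower in KO EBs by 2-fold or more. Cardiac mesoderm had 6 of 19 passing, with 1 higher and 2 lower, and a sum of 696 in KO EBs and 787 in WT EBs. The myosin light chain Myl3 was 4.48-fold lower in KO EBs (3.22 to 6.34) and the actinin Actn2 4.08-fold lower (2.50 to 6.93), while Hand1, which trophoblast also makes, was 7.37-fold higher (4.88 to 11.6). Myl3 passed the filter only through WT EBs and Hand1 only through KO EBs. Endothelium had 6 of 13 passing, with 3 higher and 1 lower, and a sum of 1067 in KO EBs and 1132 in WT EBs. The VEGF receptor Flt1 was 3.34-fold lower in KO EBs (2.70 to 4.17), while its relative Flt4 was 2.32-fold higher (1.79 to 3.03), as were Tek by 2.02-fold (1.58 to 2.59) and Kdr by 4.38-fold (1.90 to 11.8).

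Naive pluripotency genes were at least 2-fold higher in KO EBs for 5 of 11 and lower for 0 of 11, with a median of 0.56. Of all genes compared, 15.2% were higher and 12.2% lower by that much. Their sum was 32034 in KO EBs and 18386 in WT EBs. The 5 were Klf2, Klf4, Nr0b1, Fgf4 and Pou5f1. Among those within 2-fold, Nanog had 4675 in KO EBs and 3691 in WT EBs, Tfcp2l1 1620 and 1446, and Tcl1 576 and 602. Klf4 had 1088 in KO EBs, 243 in WT EBs, 1705 in KO ESCs and 2371 in WT ESCs. Trophoblast genes had 2 of 8 higher and 0 of 8 lower, and of the 2 Hand1 passed the filter only through KO EBs. In KO ESCs against WT ESCs 7 of 8 trophoblast genes were higher by 2-fold or more, where 10.6% of all genes compared were and 4.42% were lower, at a median log2 fold of 1.68 and a sum of 1300.0 in KO ESCs and 398 in WT ESCs, beside the higher Hnf4a. Visceral endoderm products in that comparison had 4 of 24 higher and 5 of 24 lower by 2-fold or more. Parts of other cell types in the differences of the 7 factors were not tested.

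Over the 9670 genes compared, the profile over the 4 libraries nearest to the mean of the 7 factors was that of Hs3st1, a heparan sulfate sulfotransferase, at a Euclidean distance of 0.231 on centred log2 values. Apoc2, an apolipoprotein (0.319), Pla2g12b, which acts in lipoprotein secretion (0.350), Lrp2, the megalin receptor of visceral endoderm (0.427), and Mogat2, an enzyme of triglyceride synthesis (0.439), followed. Lrp2 stood at 1363 in KO EBs, 13679 in WT EBs, 629 in KO ESCs and 336 in WT ESCs. Nearest to a single factor were Hs3st1 for Gata4, Nrk for Gata6 (0.342), Mogat2 for Sox17 (0.123), Foxq1 for Sox7 (0.465), Clic6 for Foxa2 (0.445), Frzb for Hnf4a (0.380) and Phf19 for Cited1 (0.163). Sox17 and Gata4 lay among each other's nearest 3 genes, at 0.306. Between factors the farthest pair was Foxa2 and Hnf4a, at 3.50. With 4 libraries many genes can come close by such a distance, and it is given as a description.

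Genes with several entries limit what the lists can show, as Cited1 does. Of 178 genes on the lists 23 had no read in any library, and 18 of these 23 have 2 or more entries in the table. Among them were Sall4, Otx2, Eomes and Tbx3 on the list of endoderm regulators, Pdgfra and Fgfr2, receptors of primitive endoderm, and Dab2, the adaptor of its absorptive cells. A footprint in a stretch shared by 2 entries could not be assigned to 1 of them, and 0 coding bases of Pdgfra belong to 1 entry alone. Shared stretches do not account for every zero, however. Up to 1332 nt of Sall4, 654 nt of Dab2 and 490 nt of Fgfr2 belong to 1 entry alone, and these genes are also listed at 0, so the zeros are not used here as levels.

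Count models with additive terms for genotype and stage, fitted to the recovered reads of all 4 libraries with 1 residual degree of freedom, test each of these terms but cannot test whether the genotype difference differs between stages. With the quasi-likelihood test of edgeR and Benjamini-Hochberg adjustment over 9670 genes, 0 of 7 factors were called for either term. At an unadjusted p under 0.05 by the same test were Foxa2 and Sox7 for genotype and 6 of 7 factors, all but Hnf4a, for stage. Of all 9670 genes, 1556 were under it for genotype and 1140 for stage. Foxa2 and Sox7 passed the filter only through WT EBs, so their results for either term, with either tool, are in part fixed by that filter. For the stage term the adjusted p was lowest for Foxa2, 0.0636, with a log2 fold of 6.17, higher in EBs in 2 of 2 genotypes. With DESeq2 7 of 7 were called higher in EBs, with adjusted p from 1.23e-09 for Foxa2 to 0.0380 for Hnf4a. With the same tool 1 of 7, Sox7, was called lower in KO (adjusted p = 0.0341). Over all 9670 genes DESeq2 called 274 higher and 101 lower in EBs, and 251 higher and 71 lower in KO. The calls for stage pool the 2 genotypes. Within KO cells Hnf4a (ratio 1.09, 0.758 to 1.56) and Sox7 (1.75, 0.450 to 6.06) did not differ beyond counting error between EBs and ESCs. An additive term averages the 2 stages, and for Hnf4a, which differed in opposite directions, it was 0.08 on the log2 scale with edgeR (adjusted p = 0.983).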

How the data were processed

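The 4 libraries were grouped by the genotype and culture their titles name. Lysates were treated with RNase I and loaded on a sucrose cushion, and small fragments were selected on gels, per the labels' protocols. The submitters' processing notes name DESeq, HTSeq 0.6.0, TopHat2 2.0.10, Bowtie and CASAVA 1.8.2, with build mm10. Settings, strand handling and the annotation's version are not given in the labels or notes used here. The authors deposited, for each RefSeq coding sequence, a normalised signal that is the read count divided by 1 factor per library. Divided by that step, 100% of the values in every library came out whole within 0.01, so whole reads were recovered. The comparisons stayed on the deposited values.

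Of the 27442 entries, 27083 took a symbol from a RefSeq table of GRCm38.p6, the assembly that mm10 names; entries of a symbol were summed to 20716 genes, 14376 with a read. The 5 summary entries that name no gene held between 66.6 and 72.1% of reads and stayed out. Genes with a mean of at least 25 were compared, with a pseudocount of 1 and a call at 2-fold. Whole reads were also given to edgeR 4.0.16 and DESeq2 1.42.0. At an unadjusted p under 0.05 edgeR had 1556 genes between KO and WT. DESeq2 left 188 adjusted p undefined for stage. Whether libraries are separate cultures is not given, and PCR copies are not independent molecules, so intervals cover counting error only.

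The 7 factors and the 13 lists were chosen with earlier results of these data known. All factors and paralogs are named; of each other list up to 4 genes, the 2 highest and 2 lowest in KO EBs against WT EBs with a larger value of at least 100; and by distance the 3 genes nearest to each factor and the 5 nearest to their mean. Some genes that this rule takes are left out here. Genes listed at 0 and marker genes named for their list were added after their values were seen. Alternatives were pseudocounts of 0.5 and 5, no filter or a mean of at least 100, equal gene totals, TMM scaling, the highest entry alone and the count models.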

Additional observations from a re-analysis of the deposited data

Results flagged for a closer look

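Hnf4a differed between KO and WT in opposite directions at the 2 stages. It was higher in KO ESCs than in WT ESCs, by a log2 fold of 3.11 from 115 and 8 reads, and lower in KO EBs, set against WT EBs, by a log2 fold of −2.55 from 45 and 256 reads. The fold in ESCs minus that in EBs was 5.66 on the log2 scale, and over the alternatives the EB change in KO minus that in WT ran from −5.76 to −5.05. With 1 library per group the difference was not tested.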

How the results depend on the processing

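Under the pseudocounts, filters, scalings and entry rules tried, all 240 values of single factors stayed on their side of the 2-fold limit, and none that was at least 2-fold apart changed direction. Near equality the log2 fold of Gata4 in KO ESCs against WT ESCs ran from −0.05 to 0.10 and that of Gata6 from −0.09 to 0.05. Sox7 in KO EBs against WT EBs ran from −5.49 to −4.86. Equal gene totals moved the median of all genes by 0.118 in the EBs and 0.127 in the ESCs. Of 410 list medians 381 moved by less than the limit set for them, 27 moved more and 2, of the node and notochord list, reversed with no filter. These 2 went to −0.21 in KO ESCs against WT ESCs and to 0.21 for the difference between EB changes. With no filter that list holds 5 genes rather than 2, and both medians are the values of Noto, which had 1 read in each ESC library. Counts over all genes followed the number of genes admitted. With no filter 3100 were higher and 2096 lower in KO EBs, 2090 and 1087 in KO ESCs, 2192 and 1821 in WT EBs against WT ESCs, 2096 and 1475 in KO EBs against KO ESCs, and 2602 and 2353 for the difference. With a mean of at least 100 these were 810 higher in KO EBs, 515 and 209 in KO ESCs, 568 and 397 in WT EBs, 456 and 376 in KO EBs against KO ESCs, and 612 and 742 for the difference. Where edgeR called 0 higher and 0 lower in KO (1556 at an unadjusted p under 0.05) and 20 higher and 5 lower in EBs, DESeq2 called 251 and 71 in KO, with 1 factor, and 274 and 101 in EBs, with 7 factors. No paired analysis was possible because with 1 library per group no replicate numbers link libraries; the additive count models set KO against WT with stage as a term. Depth limits Sox7 and Foxa2 outside WT EBs, at 3 to 9 reads in all but the Foxa2 value of KO EBs, and 3 reads were worth between 1.60 and 4.68.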
